A study of Mus musculus with 6 samples.

Results

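Cell cycle and proliferation genes were examined in the livers of mice with diet-induced nonalcoholic steatohepatitis (NASH). The genes were taken by symbol from a list of 48 cyclins, cyclin-dependent kinases (CDKs), replication factors and mitosis genes, and all 48 were found among the 17460 gene symbols measured. RNA sequencing was performed on 6 whole livers, 3 from control mice and 3 from mice with liver-specific inactivation of Blnc1 (LKO), a long noncoding RNA. All were C57BL/6 mice 9 months of age that had been fed a NASH diet rich in fructose, trans fat and cholesterol for 24 weeks. The LKO mice carried a Cas9 transgene and received, through the tail vein, an adenovirus that expressed guide RNAs against Blnc1. For the high-fat diet experiment of the same study, the controls were Cas9 mice that received a GFP adenovirus. Adenovirus reaches hepatocytes and transduces the other cells of the liver poorly, so Blnc1 can remain in these. Blnc1 itself was not analysed here, and the deletion was therefore not checked in these libraries.

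Adult hepatocytes are mostly quiescent and re-enter the cell cycle after injury or loss of tissue. D-type cyclins with CDK4 or CDK6 start this entry by phosphorylating the retinoblastoma protein, which releases E2F factors to switch on genes for DNA replication, and a later wave driven by B-MYB, FOXM1 and the MuvB complex switches on genes for mitosis. In chronic liver injury, hepatocytes, duct cells, stellate cells and immune cells can all divide. Whole-liver RNA adds these cells together, and fewer cells of a type cannot be told apart from less RNA per cell.

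Genes of these waves are known for different promoter letters, and promoters of 5 members are shown because the members are later compared by them. The first set holds the helicase genes Mcm5 and Mcm6, with matches to the E2F motif in capitals. It was searched on both strands as TTTGGCGC or TTTCCCGC or TTTGCCGC or TTTCGCGC. The second set holds Mcm2 and the common proliferation markers Mki67 and Top2a, with the cell cycle genes homology region (CHR, searched as TTTGAA on both strands) in capitals. Mcm2 is a helicase gene of DNA replication, as are Mcm5 and Mcm6, and stands in this set by its letters alone. Each run is the 180 bases before the RefSeq start site in GRCm38.p6, read 5′ to 3′ along the gene. They lie at chr8:75109329-75109508 on the + strand for Mcm5, chr1:128359706-128359885 on the − strand for Mcm6, chr6:88898781-88898960 on the − strand for Mcm2, chr7:135716380-135716559 on the − strand for Mki67 and chr11:99024190-99024369 on the − strand for Top2a. No annotated exon falls within these windows.
Mcm5: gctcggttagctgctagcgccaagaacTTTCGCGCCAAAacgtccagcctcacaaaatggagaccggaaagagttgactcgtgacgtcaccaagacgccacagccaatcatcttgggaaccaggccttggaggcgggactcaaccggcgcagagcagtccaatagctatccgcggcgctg
Mcm6: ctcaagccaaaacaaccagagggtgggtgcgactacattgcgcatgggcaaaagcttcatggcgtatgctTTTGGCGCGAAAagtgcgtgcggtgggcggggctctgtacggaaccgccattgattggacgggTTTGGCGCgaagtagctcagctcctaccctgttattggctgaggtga
Mcm2: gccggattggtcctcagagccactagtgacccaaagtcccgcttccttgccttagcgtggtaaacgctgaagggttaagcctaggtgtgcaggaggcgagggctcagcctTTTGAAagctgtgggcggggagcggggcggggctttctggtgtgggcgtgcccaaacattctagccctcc
Mki67: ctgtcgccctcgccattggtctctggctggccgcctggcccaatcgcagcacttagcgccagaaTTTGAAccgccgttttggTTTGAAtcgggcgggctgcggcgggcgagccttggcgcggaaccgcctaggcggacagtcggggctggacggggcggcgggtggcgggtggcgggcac
Top2a: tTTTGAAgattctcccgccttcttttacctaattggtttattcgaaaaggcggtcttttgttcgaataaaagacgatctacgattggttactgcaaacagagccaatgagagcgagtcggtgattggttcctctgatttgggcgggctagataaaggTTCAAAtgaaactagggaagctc
In Mcm5 and in the distal match of Mcm6 the motif is read on both strands over overlapping bases.

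Most of these genes had a slightly lower mean in LKO livers, but no gene among them passed the test. Means on the log2 scale were lower for 42 of 48 genes (87.5%), where 50.4% of all 17297 genes tested were lower. The median log2 fold change was −0.12, with a range from −0.32 for Cdc6 to 0.14 for Cenpf, and the median over all genes tested was −0.00099. Values are read counts divided by a size factor of each liver (normalized read counts), and fold changes are LKO minus control on log2(value + 1), fitted with limma. With Benjamini-Hochberg adjustment over all genes tested, 0 of 48 genes passed an adjusted p under 0.05 in limma, where 0.00578% of all genes passed. The members' adjusted p ranged from 0.873 to 1.000. At an unadjusted p under 0.05, limma gave 1 lower gene, Mcm4 (2.08%, where 2.74% of all genes were lower at this level), and 0 higher genes (2.94% of all genes). edgeR called 0 members (0.0066% of all genes), with 0 at an unadjusted p under 0.05 (5.66% of all genes in either direction). DESeq2 called 0 (0.533% of all genes), with 1 at an unadjusted p under 0.05, again Mcm4 (2.39% of all genes were lower at this level). All 3 LKO livers lay below all 3 control livers for Mcm2, Mcm3, Pcna and Cdca8 (8.33% of members, 5.28% of all genes) and above them for 0 members (5.35% of all genes). For 40 of 48 genes, the 95% interval of the difference lay within 1.5-fold in either direction. Exons of 17 members overlap those of another gene. Among them are Ccna2, Ccnd1, Ccnd2, Ccne2, Cdk4, Cdk6, Cdkn1a and Mcm7, whose neighbours lie on the other strand. Foxm1 is also among them, with neighbours on the same strand. Strand was not kept. Ccnb1, Ccnb2, Pcna and Tyms have pseudogenes. How reads that fit more than 1 gene were counted is not given, so such reads may have been shared or lost.

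**Figure D1:**
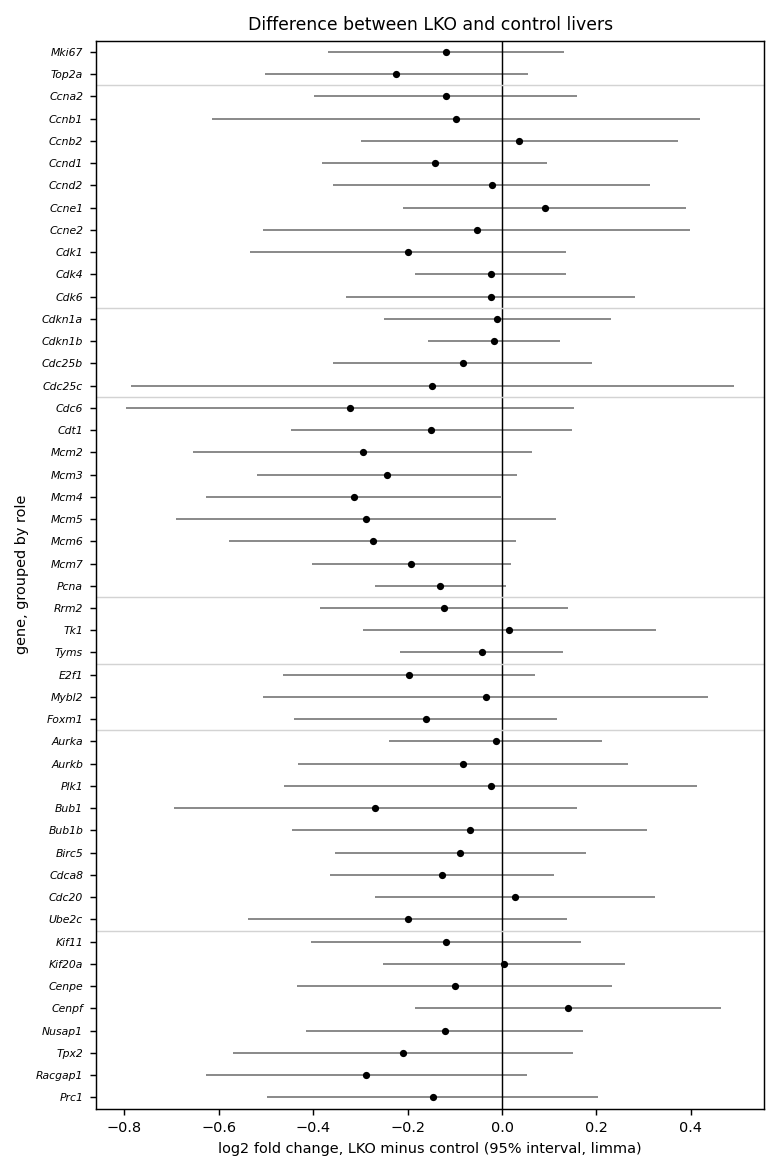
Log2 fold change of each of the 48 genes, LKO minus control (points), with its 95% interval from limma (lines), grouped by role. The intervals of 47 genes include 0, and that of Mcm4 ends at −0.0029.

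The 6 livers differed in the level of these genes beyond their group labels. The mean over the 48 genes, as log2 difference from the control mean, was 0.021, −0.12 and 0.098 in control livers 1 to 3 and −0.27, −0.0072 and −0.071 in LKO livers 1 to 3. Control 2 lay below both LKO 2 and LKO 3, and the groups overlapped. LKO 1 was the lowest liver for 29 of 48 genes (60.4%, against 24.4% of all genes tested), and control 3 was the highest for 25 (52.1%, against 15.0% of all genes tested). Over all genes tested, LKO 1 was more often than any other liver the lowest and also the highest. It was the highest for 25.5% of all genes tested and for 2.08% of members. Without LKO 1, the median log2 fold change of the members was −0.051 and 16 genes had a higher mean in LKO livers instead of 6. Without control 3, the median was −0.052 and 11 genes were higher. Of the 28 members that kept their direction with each liver left out, 21 had a difference more than 1.5 times smaller without LKO 1. LKO 1 also had the fewest reads, 65384969, in a range up to 89350181 in LKO 3. Control 2 and control 3, the lowest and the highest control for these genes, had 69457633 and 70162887 reads. The part of depth in this order was not tested.

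**Figure D2:**
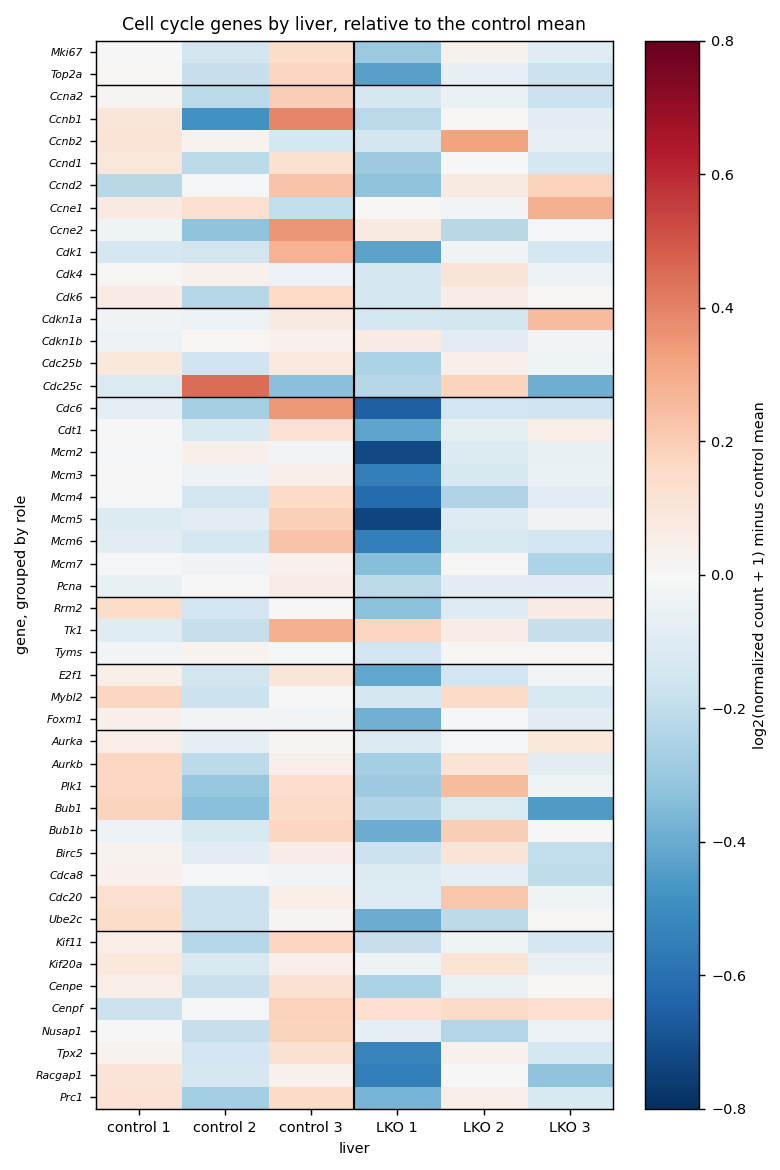
Level of each of the 48 genes (rows, grouped by role) in each liver (columns), as log2(normalized count + 1) minus the control mean. The LKO 1 column is bluest over the replication genes, where Mcm5 and Mcm2 are lowest, and control 3 is mostly red.

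Mki67 and Top2a are the usual markers of dividing cells, the first a coat protein of mitotic chromosomes and the second the topoisomerase that untangles replicated DNA. Mki67 had 817, 739 and 903 in the control livers and 664, 838 and 765 in the LKO livers. Top2a had 845, 738 and 947 in the control livers and 621, 801 and 744 in the LKO livers. For both genes LKO 1 was lowest and control 3 highest, and the remaining livers overlapped. The log2 fold changes were −0.12 (95% interval −0.37 to 0.13) for Mki67 and −0.22 (95% interval −0.50 to 0.05) for Top2a. Without LKO 1 they were −0.029 for Mki67 and −0.12 for Top2a.

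The cyclins and their kinases differed little, with a median log2 fold change of −0.039 over 10 genes, 8 of them lower. Cyclin D1, which links growth signals to CDK4 and CDK6, was the most abundant member per length of exon, at 3106 normalized counts per kb in control and 2807 in LKO livers. Ccnd1 had 12301, 9963 and 12585 in the control livers and 9456, 11574 and 10466 in the LKO livers, and the groups overlapped. Its log2 fold change was −0.14 (95% interval −0.38 to 0.09). Ccnd2, the other D-type cyclin listed, had 1610.0, 1868 and 2196 in the control livers and 1498, 1972 and 2135 in the LKO livers. Its kinase partner Cdk4 had 3818, 3892 and 3681 in the control livers and 3451, 4102 and 3672 in the LKO livers, and Cdk4 was bounded closely, with a log2 fold change of −0.02 (95% interval −0.18 to 0.14). Cdk6, the second D-cyclin kinase, had 253, 206 and 269.5 in the control livers and 219, 251 and 242 in the LKO livers. Neither Ccnd2 nor Cdk6 separated the groups.

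The E-type cyclins activate CDK2 at the start of S phase. Ccne1 had 319.8, 334 and 265 in the control livers and 307, 299.7 and 371 in the LKO livers. Ccne2 had 108, 88.4 and 142 in the control livers and 117, 94.9 and 109.5 in the LKO livers. LKO 3 was highest for Ccne1 and control 3 for Ccne2, and the log2 fold changes were 0.09 and −0.05, and both intervals included 0 (95% interval −0.21 to 0.39 for Ccne1 and 95% interval −0.51 to 0.40 for Ccne2). Cyclin A2 serves in S phase and G2, and the B-type cyclins pair with CDK1 to start mitosis. Ccna2 had 362, 307 and 408 in the control livers and 325, 344 and 316 in the LKO livers. Ccnb1 had 118, 78.8 and 146 in the control livers and 95.2, 112 and 104 in the LKO livers. The highest and lowest livers for both genes were controls. Ccnb2 had 273, 258 and 229 in the control livers and 228, 316 and 242 in the LKO livers, and LKO 2 was highest. Cdk1 had 502, 498 and 668 in the control livers and 408, 540.2 and 500.5 in the LKO livers, with control 3 highest and LKO 1 lowest. Their log2 fold changes were −0.12 for Ccna2, −0.10 for Ccnb1, 0.04 for Ccnb2 and −0.20 for Cdk1, and every interval included 0.

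The inhibitors that hold CDKs in check differed little. Cdkn1a (p21), a p53 target that blocks CDKs, had 2195, 2160.0 and 2352 in the control livers and 2039, 2014 and 2660.0 in the LKO livers. LKO 3 was highest and the other LKO livers lay below the controls. Its log2 fold change was −0.01 (95% interval −0.25 to 0.23), and its sign differed between tools (0.0042 in edgeR and 0.0025 in DESeq2). Cdkn1b (p27), the inhibitor of quiescent cells, had a log2 fold change of −0.02 (95% interval −0.16 to 0.12). The phosphatases that activate CDKs, Cdc25b and Cdc25c, had −0.08 and −0.15. Cdc25c was the member with the fewest reads, down to 26 in 1 liver, and its interval was the widest (95% interval −0.79 to 0.49).

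Of the 8 role groups, the genes that license and clamp DNA for replication had the median furthest from 0. All 9 had a lower mean in LKO livers, with a median log2 fold change of −0.27, and LKO 1 was the lowest liver for 9 of 9. Their mean level, as log2 difference from the control mean, was −0.041, −0.088 and 0.13 in controls 1 to 3 and −0.53, −0.11 and −0.091 in LKO livers 1 to 3. Every LKO liver was therefore below every control for the mean of these 9 genes, LKO 2 and 3 by a small margin under control 2. The 6 subunits of the MCM2-7 helicase, which is loaded on DNA in G1 and unwinds it in S phase, had log2 fold changes from −0.31 to −0.19 (median −0.28, adjusted p from 0.873 to 0.946 in limma). Without LKO 1, their median was −0.11, with all 6 still lower and 0 at an unadjusted p under 0.05 (5.68% of all genes in either direction). The median of the 42 members without these 6 was −0.099.

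Mcm4 had 1197, 1093 and 1347 in the control livers and 788, 1021 and 1139 in the LKO livers. The groups overlapped at control 2 and LKO 3, and the means were 1213 ± 128 and 983 ± 179 (SD, n = 3 each). Its log2 fold change was −0.31 (standard error 0.137, unadjusted p = 0.048, adjusted p = 0.873, limma). The unadjusted p of Mcm4 was 0.0613 in edgeR and 0.0339 in DESeq2. Mcm2 had 1203, 1250.0 and 1199 in the control livers and 739, 1129 and 1169 in the LKO livers, without overlap, and LKO 1 stood far below LKO 2 and LKO 3. Mcm3 had 1437, 1397 and 1488 in the control livers and 984, 1318 and 1386 in the LKO livers, also without overlap and with LKO 1 lowest. The log2 fold changes were −0.29 (95% interval −0.65 to 0.06) for Mcm2 and −0.24 (95% interval −0.52 to 0.03) for Mcm3, and without LKO 1 they were −0.083 and −0.091. The other 3 subunits overlapped between groups, and LKO 1 was again the lowest liver. Mcm5 had 1140.0, 1159 and 1400.0 in the control livers and 738, 1142 and 1205 in the LKO livers. Mcm6 had 1892, 1835 and 2360.0 in the control livers and 1377, 1853 and 1816 in the LKO livers. Mcm7 had 1313, 1296 and 1355 in the control livers and 1044, 1330.0 and 1111 in the LKO livers. In each of these 3 genes at least 1 LKO liver lay above a control.

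**Figure D3:**
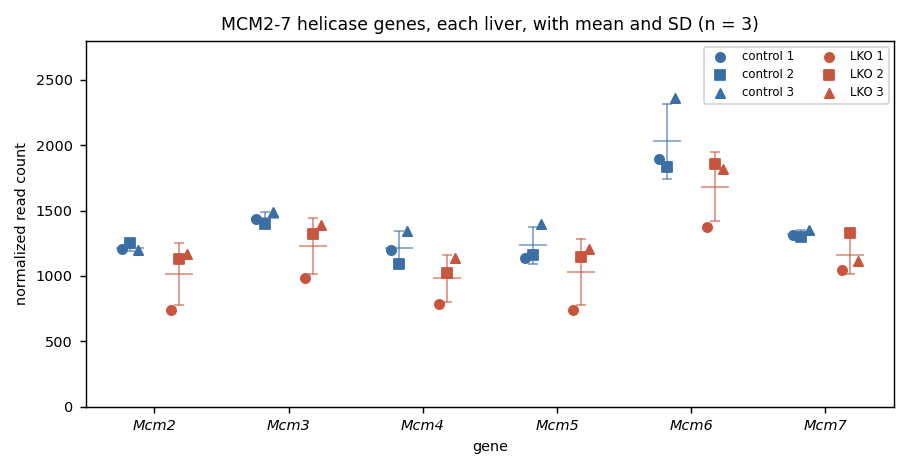
Normalized read count of the 6 MCM2-7 genes in each liver (symbols), with the group mean and SD (lines, n = 3). LKO 1 (circle) is the lowest liver for every gene, and the groups do not overlap for Mcm2 and Mcm3.

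Pcna encodes the sliding clamp that holds DNA polymerases to the template, and was the third most abundant member per kb of exon (1608 in control and 1469 in LKO livers). Pcna had 2345, 2434 and 2545 in the control livers and 2111, 2290.0 and 2291 in the LKO livers, without overlap, and LKO 2 and LKO 3 were nearly equal. Means were 2441 ± 100.1 and 2231 ± 103 (SD, n = 3 each). The log2 fold change of Pcna was −0.13 (95% interval −0.27 to 0.01, unadjusted p = 0.062, adjusted p = 0.891, limma). The helicase loaders Cdc6 and Cdt1 had log2 fold changes of −0.32 (95% interval −0.80 to 0.15) and −0.15 (95% interval −0.45 to 0.15), which became −0.16 and −0.014 without LKO 1. Among the genes of deoxynucleotide synthesis, Rrm2 of ribonucleotide reductase had −0.12, thymidylate synthase (Tyms) −0.04 and thymidine kinase (Tk1) 0.02, and the groups overlapped for all 3. Without LKO 1, Rrm2 had −0.018.

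The transcription factors of both waves had lower means in LKO livers. The log2 fold changes were −0.20 for E2f1 (95% interval −0.46 to 0.07), −0.16 for Foxm1 (95% interval −0.44 to 0.12) and −0.03 for Mybl2, which encodes B-MYB (95% interval −0.51 to 0.44). Without LKO 1 they were −0.087 for E2f1, −0.050 for Foxm1 and 0.017 for Mybl2. Mybl2 was among the scarcest members at 12.3 normalized counts per kb in control livers. The groups overlapped for all 3.

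The 9 mitotic kinases, checkpoint genes and partners of the anaphase-promoting complex had a median log2 fold change of −0.082. Cdca8 (borealin, of the chromosomal passenger complex) had 257, 249.3 and 248 in the control livers and 233, 239.6 and 218 in the LKO livers, without overlap. Means were 252 ± 4.99 and 230.3 ± 11.1 (SD, n = 3 each). The log2 fold change of Cdca8 was −0.13 (95% interval −0.37 to 0.11, adjusted p = 0.971, limma). Its partners in that complex, Aurkb and Birc5 (survivin), had −0.08 and −0.09. The spindle checkpoint genes Bub1 and Bub1b had −0.27 and −0.07, and the mitotic kinases Aurka and Plk1 had −0.01 and −0.02. Ube2c and Cdc20, which serve the anaphase-promoting complex, had −0.20 and 0.03. Of the 8 genes of the spindle, kinetochore and cytokinesis, 6 had a lower mean (median log2 fold change −0.12). The largest difference was −0.29 for Racgap1, a regulator of cytokinesis (95% interval −0.63 to 0.05, unadjusted p = 0.088, adjusted p = 0.915, limma). Without LKO 1, Racgap1 had −0.16. The spindle assembly factor Tpx2 had −0.21, the midzone protein Prc1 −0.15, the microtubule-binding Nusap1 −0.12 and the kinesin Kif11 −0.12. Without LKO 1, Tpx2 had −0.052, Prc1 −0.033, Nusap1 −0.14 and Kif11 −0.086. The kinetochore motor Cenpe had −0.10, the kinesin Kif20a 0.0035 and the kinetochore protein Cenpf 0.14, and the groups overlapped for all 8 genes.

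**Figure D4:**
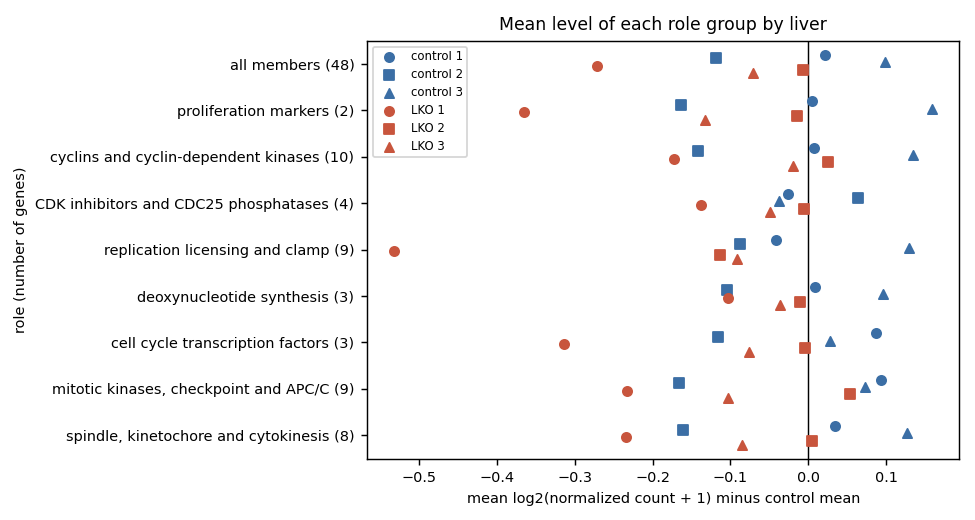
Mean level of each role group in each liver, as mean log2(normalized count + 1) minus the control mean (symbols, 1 per liver). LKO 1 lies lowest for all 48 genes together, at −0.27, and for replication licensing and clamp, at −0.53.

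Members were also compared by the letters of their promoters. RefSeq windows of 250 bases before to 50 after the start site were at hand for 38 of 48 members. An E2F match was found in 7 of 38 (18.4%, against 4.03% of 12828 genes tested with a window), a CHR match in 15 (39.5%, against 15.0%) and a CCAAT box (CCAAT, both strands) in 26 (68.4%, against 41.6%). The 6 members with an E2F match and no CHR match were Cdc6, Cdt1, Mcm3, Mcm5, Mcm6 and Mcm7, all of the licensing group, with log2 fold changes from −0.32 to −0.15 (median −0.26). The rest of that group had −0.29 for Mcm2 (CHR match), −0.31 for Mcm4 (no window) and −0.13 for Pcna (neither motif). This class thus holds licensing genes alone, and the part of the motif apart from the role was not tested. Cdk1 held both motifs. The 14 members with a CHR match alone had a median of −0.12, with 3 higher and 11 lower, and the 17 with neither had a median of −0.083. Over all genes tested, the median was −0.019 for the 517 with an E2F match and −0.0016 for the 1925 with a CHR match. The median of the 7 members with an E2F match, Cdk1 included, was −0.24 with all livers and −0.091 without LKO 1. Without LKO 1, the median of members with a CHR match alone was −0.031 and that of members with neither −0.023. A match is a description of the letters and was not tested as a binding site. Only exact letters were searched, so the class with neither motif is not a set of genes free of E2F control. It holds E2f1 itself, and some windows, such as those of Cdc6 and E2f1, include exon bases of the same gene.

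**Figure D5:**
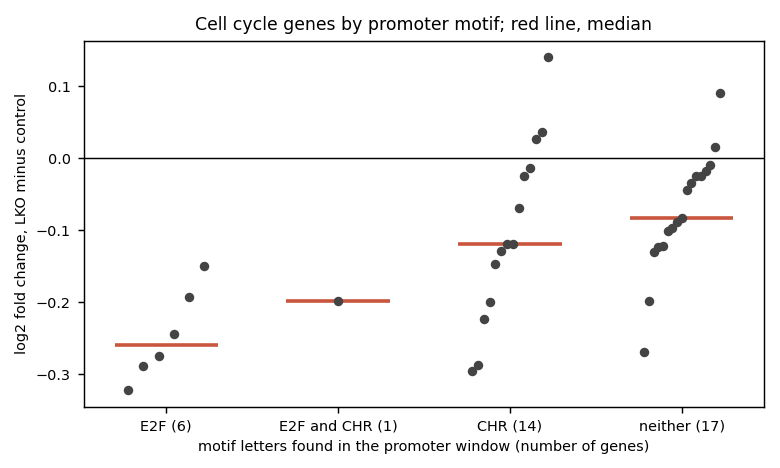
Log2 fold change, LKO minus control, of the 38 members with a promoter window (points), by the motif letters found there, with the median of each class (red line). The 6 genes with an E2F match alone lie between −0.32 and −0.15.

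Other genes of the same pathways were counted from lists that hold no member. Of 39 other S phase genes, 32 had a lower mean in LKO livers (median log2 fold change −0.079), and of 56 other G2 and M phase genes, 44 were lower (median −0.097). LKO 1 was the lowest liver for 24 of the 39 S phase genes and 24 of the 56 G2 and M phase genes, against 24.4% of all genes tested. Of 28 genes of the RB, E2F and MuvB complexes and other CDK regulators, 13 were lower (median 0.0042), and of 20 p53 target genes, 10 were lower (median 0.0013). Of 14 hepatocyte mitogens and receptors, 9 were lower (median −0.065). In limma 0 genes of these lists passed an adjusted p under 0.05. At an unadjusted p under 0.05, the counts higher and lower were 1 and 2 for S phase, 0 and 3 for G2 and M phase, 0 and 0 for the RB list, 1 and 0 for p53 targets and 0 and 2 for mitogens. The lower genes were 5.13% of the S phase list, 5.36% of the G2 and M phase list and 14.3% of the mitogen list, where 2.74% of all genes were lower and 2.94% higher at this level.

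The genes of smallest unadjusted p in those lists are given with their values. Nuf2, of the kinetochore, had means of 163 ± 14.7 in control and 117 ± 12.4 in LKO livers (SD, n = 3), with a difference of −0.48 on the log2 scale. Kif20b, a kinesin of cytokinesis, had 229, 214 and 226 in control livers and 188, 176 and 187 in LKO livers, a log2 fold change of −0.28. Ung, a uracil-DNA glycosylase, had 692, 685 and 612 in control livers and 571, 574 and 558 in LKO livers, a log2 fold change of −0.22. Each LKO liver lay below each control for these 3 genes, which were picked for their small p. Over the whole lists this held for 7 of 39 S phase and 8 of 56 G2 and M phase genes (5.28% of all genes). In each of these lists 1 gene lay above all controls in every LKO liver (5.35% of all genes). The adjusted p in limma was 0.756 for Nuf2, 0.851 for Kif20b and 0.84 for Ung. Of the growth factors, Ereg had a log2 fold change of −0.43 (adjusted p = 0.84, limma), without overlap, and the matricellular gene Cyr61 had −0.33 (adjusted p = 0.83, limma), with overlap. In the other direction, the p53 target Eda2r had a log2 fold change of 0.34 (adjusted p = 0.824, limma). Mcm10, which helps to start the helicase, had 5247, 5417 and 5268 in control livers and 7255, 5759 and 6526 in LKO livers. All LKO livers lay above all controls for Mcm10, with a log2 fold change of 0.29 (adjusted p = 0.695, limma), and LKO 1, the lowest liver for the MCM2-7 genes, was the highest for Mcm10.

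Markers of the cells that livers hold were also compared between the groups. The summed hepatocyte markers (8 of 8 listed, Alb among them) ranged from 5328260 to 5943490 normalized counts in control and from 5196050 to 6324150 in LKO livers, highest in LKO 1. Stellate cell and fibroblast markers ranged from 66926 to 80958 in control and from 54007 to 66354 in LKO livers, with 6 of 8 lower and LKO 1 the lowest. Macrophage markers had 8 of 10 genes higher, with sums from 55477 to 63127 in control and from 62242 to 71261 in LKO livers. Cholangiocyte markers ranged from 59937 to 71896 and from 47537 to 71831, endothelial markers from 23566 to 24896 and from 22736 to 23559.8, and lymphocyte markers from 5555 to 6027 and from 5396 to 6500.3. Neutrophil markers (5 of 6 listed) reached 4860.2 in LKO 3 and were between 422 and 1022 in the other livers, with 5 of 5 genes higher in LKO livers (median log2 fold change 1.06). Erythroid markers (3 of 7 listed) ranged from 6916 to 9276 and from 7306 to 9786 in their sum, while 3 of 3 genes had a higher mean on the log2 scale (median 1.64). No marker measured was at 0 in every liver, and 0 markers were called by limma. Counts at an unadjusted p under 0.05 in limma add both directions, and 5.68% of all genes tested were at this level. They were 5 of 10 macrophage markers, 4 of 8 stellate cell and fibroblast markers, 3 of 7 endothelial markers and 2 of 3 erythroid markers. The others were 1 of 8 hepatocyte markers, 1 of 10 lymphocyte markers and 0 of the cholangiocyte and neutrophil markers. The part of these cell types in the levels of the cell cycle genes was not tested.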

How the data were processed

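Liver RNA of 3 control and 3 LKO mice was sequenced after polyA selection with a kit that does not mark strand. The authors aligned reads to mm10 with STAR, counted them with HTSeq and used DESeq2, and versions, annotation and filters are not given in the sources used here. The deposited signal is a gene's read count scaled by the size factor of that library. In every liver 100% of values were whole multiples of 1 read (tolerance 0.01), which gave back the reads, from 65384969 to 89350181 per liver. Livers within a group differed beyond sampling error. Whether mice were housed or processed together is not given, so p-values measure only the spread between these livers.

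limma (3.58.1, R 4.3.3) with a trend was fitted to log2(value + 1), without covariates. The 17297 genes that reached 1 in 3 or more livers were tested, with Benjamini-Hochberg adjustment and a threshold of 0.05. The scale understates changes of low genes. Alternatives were edgeR (4.0.16) and DESeq2 (1.42.0) on the recovered reads, a pseudocount of 0.1, no filter, a mean of at least 10 reads, total count scaling, the replicate number as a block and each liver left out. The fits were tested on simulated data. The changes set there were larger than any difference of a member, so the detection of such small differences was not tested. The members and lists were chosen with earlier results of these data known. Values per liver are given for Mki67, Top2a, cyclins, CDKs, Cdkn1a and members with an unadjusted p under 0.05 or without overlap, and also for Mcm5, Mcm6 and Mcm7, chosen after their values were seen. From each other pathway list, up to 2 genes of smallest p in each direction are named. Exon lengths came from GENCODE M21 (GRCm38) and promoters from RefSeq (GRCm38.p6). Exons of 17 members overlap another gene, and 4 members (Ccnb1, Ccnb2, Pcna and Tyms) have pseudogenes of the same name. Reads of these members may be shared or lost. Of the table's symbols, 23 have the form of dates and were left as they are.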

Additional observations from a re-analysis of the deposited data

How the results depend on the processing

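No member was called under any of the 13 alternatives, and the members' median log2 fold change stayed negative, from −0.19 to −0.051 when single livers were left out. The number of genes called over the whole table was 1, and became 2 without the filter, 84 with DESeq2, 0 with the replicate block and 0 to 13 with a liver left out. Members at an unadjusted p under 0.05 went from 1 to 0 with a mean of at least 10 reads, with total count scaling and with edgeR, to 3 with the replicate block (Mcm4, Mcm5 and Mcm6), and to 0 to 4 with a liver left out, 0 of them without control 1, control 3 or LKO 1. The 4 without control 2, LKO 2 or LKO 3 are 8.33% of members, where 4.57%, 10.7% and 5.54% of all genes were at this level, and the 3 with the block are 6.25%, against 5.27% of all genes. In the settings with 0 members at this level, 3.84% to 5.68% of all genes were. Same-numbered livers did not deviate together (correlations −0.058, −0.019 and −0.11), so the numbers were not taken as pairs, and the block changed no other call. Members with a higher mean numbered 6, and 4 to 16 with a liver left out. Direction reversed in 39 of 288 fits of a member with a liver left out and in 3 of 144 with total count scaling, edgeR or DESeq2. The other alternatives leave the fold change nearly as it was and say nothing of direction. The direction of 20 members depended on the livers included, with log2 fold changes over the 6 fits of Ccnb1 −0.341 to 0.099, Ccnb2 −0.105 to 0.128, Ccnd2 −0.132 to 0.129, Ccne1 −0.0095 to 0.155, Ccne2 −0.214 to 0.123, Cdk4 −0.093 to 0.032, Cdk6 −0.138 to 0.056, Cdkn1a −0.141 to 0.060, Cdkn1b −0.058 to 0.019, Cdc25b −0.163 to 0.0027, Cdc25c −0.314 to 0.076, Tk1 −0.078 to 0.158, Tyms −0.071 to 0.010, Mybl2 −0.130 to 0.051, Aurka −0.061 to 0.037, Aurkb −0.189 to 0.013, Plk1 −0.176 to 0.110, Bub1b −0.202 to 0.097, Cdc20 −0.069 to 0.092 and Kif20a −0.059 to 0.046. Cdkn1a was 0.0042 with edgeR and 0.0025 with DESeq2, and Kif20a was −0.0020 with total count scaling. The causes were not tested. With 3 livers a group, 8 members had intervals that reach beyond 1.5-fold.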
